A study of Arabidopsis thaliana with 4 samples.

Results

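Late embryogenesis abundant (LEA) and dehydrin transcripts were examined in Arabidopsis thaliana seedlings of the wild type and of a NODULIN HOMEOBOX (NDX) mutant. The genes were a set of 17 locus identifiers of LEA and dehydrin genes, chosen with earlier results of these data known. The 7 of them found in the deposited seedling gene table are described here, of 1984 genes in that table. They are EM1, AT3G15670, RAB18, SAG21, COR47, ERD10 and LEA14. The authors' table holds genes they had called different between the genotypes in these same libraries, so the described genes were selected on these libraries and their values are a description. Where limma calls are counted for a list of genes, they are calls on genes already selected for differing, set beside the share of the whole table, and they are not independent evidence. The other 10 genes of the set, GEA6 (also known as EM6), LEA7, LEA18, LEA4-5, ERD14, LTI30, ECP63, AT3G17520, AT2G42560 and LEA3, are outside the listed genes and were not analysed here.

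The samples were 10-day-old seedlings, either wild type (Col-0) or ndx1-4, a T-DNA insertion mutant of NDX in the Col-0 background, with 2 mRNA-seq libraries per genotype and 4 in all. No treatment is named for either genotype. The mutant is a single insertion line. The study describes its mRNA-seq replicates as independent and biological, while the labels do not say whether the seedling libraries of a genotype came from separate growths. NDX (AT4G03090) measured 5.08 and 4.96 FPKM for Col-0 against 0.98 and 1.00 FPKM for ndx1-4, in the direction the labels give. FPKM is read abundance scaled to transcript length and to the size of the library, so levels of different genes can be compared. Read depth is unknown from these values. Seedlings hold many cell types, and a change in the number of cells that express a gene cannot be told apart from a change in RNA per cell.

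LEA proteins are small, mostly very hydrophilic proteins that accumulate late in seed maturation, when the embryo becomes able to survive drying, and in vegetative tissue under drought, cold or salt. Many are unfolded in dilute solution and are thought to protect membranes and other proteins as water is lost. Many of their genes respond to abscisic acid (ABA), whose signal runs from soluble receptors through phosphatases and SnRK2 kinases to bZIP transcription factors such as ABI5. These factors bind ABA-responsive elements (ABRE) that share an ACGT core.

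In ndx1-4 seedlings 6 of the 7 genes had higher FPKM and 1, LEA14, had lower FPKM. The libraries of the genotypes did not overlap in any of the 7. In the whole table they did not overlap in 99.9% of the genes, 43.5% higher and 56.5% lower, and since the genes were listed for differing nothing can be read from the separation of these 7. The sizes were very unequal. EM1 was 17.8-fold higher on means and AT3G15670 was 2.88-fold higher, whereas the other 5 changed by less than 1.5-fold, as did 58.7% of all listed genes. A change of at least 2-fold upward was found in 12.9% of the table.

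**Figure D1:**
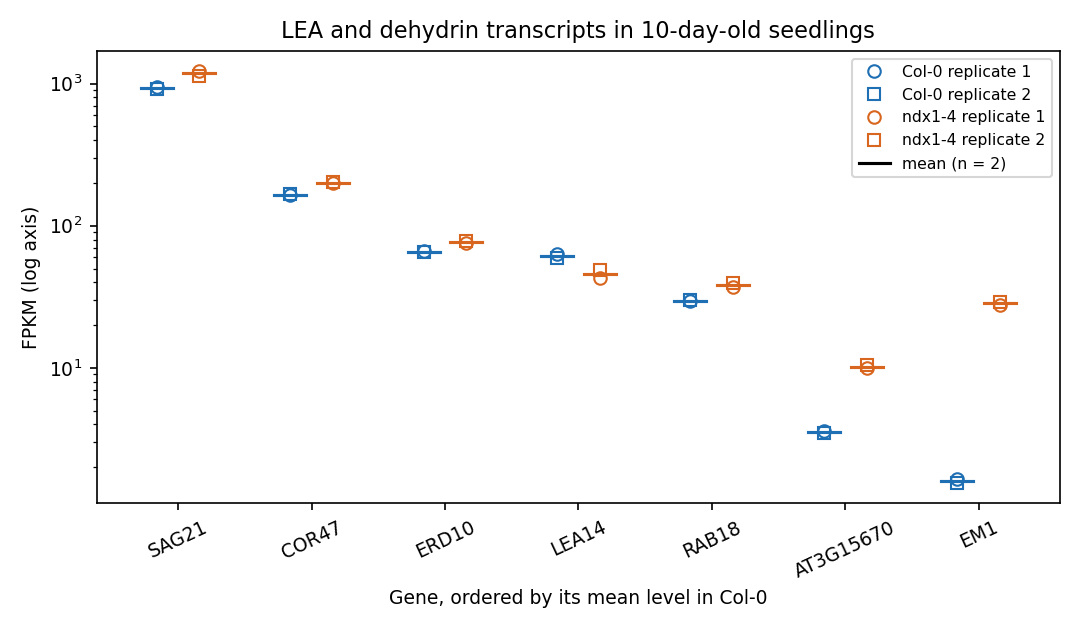
FPKM (log axis) of the 7 genes in each library, ordered by the mean level in Col-0, with blue for Col-0, orange for ndx1-4, circles and squares for replicates 1 and 2, and a line at the mean of the 2 libraries. EM1 climbs from under 2 FPKM to above 27 FPKM, AT3G15670 from under 4 to above 9 FPKM, LEA14 goes down, and the other 4 shift upward by less than 1.5-fold.

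The largest change was in EM1 (AT3G51810, TAIR10 chromosome 3, 19214722 to 19215831, plus strand), which encodes a very hydrophilic protein of maturing seeds and is a known ABI5 target. EM1 measured 1.64 and 1.55 FPKM for Col-0 against 27.73 and 28.99 FPKM for ndx1-4. Both mutant libraries were thus far above both wild type libraries, with a gap of 26.09 FPKM between the nearest values. The means were 1.60 ± 0.0636 FPKM (SD, n = 2) in Col-0 and 28.36 ± 0.891 FPKM (SD, n = 2) in ndx1-4. The limma difference, fitted over all listed genes, was 3.50 ± 0.08 (SE) in log2(FPKM + 1) units, a scale that shrinks changes near 1 FPKM. It was the largest among the listed LEA family genes and ranked 14 of 1984 from the top.

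AT3G15670 (chromosome 3, 5309886 to 5310988, minus strand) is annotated as a LEA family protein and belongs to the same broad class of seed LEA proteins as LEA7. It measured 3.58 and 3.49 FPKM for Col-0 against 9.93 and 10.41 FPKM for ndx1-4. The replicates lay within 1 FPKM of each other in both genotypes and the genotypes were 6.35 FPKM apart at their nearest. The limma difference was 1.30 ± 0.08 (SE). EM1 and AT3G15670 were the least abundant of the 7 in Col-0, and together they summed to 5.22 and 5.04 FPKM there and to 37.66 and 39.4 FPKM in ndx1-4.

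The sequence before the gene start is shown for these genes with the largest increases and for LEA14, the gene that was lower, since ABRE core matches were found before all 3. Each line gives 250 bases that end at the last base before the annotated gene start, 5′ to 3′ on the strand of the gene, from the RefSeq assembly TAIR10.1. Capitals mark the ABRE core ACGTG and the drought and cold responsive element (DRE) core CCGAC, either on this strand or as CACGT and GTCGG where the match is on the opposite strand. EM1 is at chr3:19214472-19214721 (plus strand), AT3G15670 at chr3:5310989-5311238 (minus strand) and LEA14 at chr1:172949-173198 (minus strand).
EM1: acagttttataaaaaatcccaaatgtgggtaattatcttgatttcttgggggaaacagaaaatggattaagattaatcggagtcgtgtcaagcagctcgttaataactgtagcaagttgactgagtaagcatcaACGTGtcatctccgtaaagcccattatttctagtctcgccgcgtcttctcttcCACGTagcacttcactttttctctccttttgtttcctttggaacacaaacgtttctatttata
AT3G15670: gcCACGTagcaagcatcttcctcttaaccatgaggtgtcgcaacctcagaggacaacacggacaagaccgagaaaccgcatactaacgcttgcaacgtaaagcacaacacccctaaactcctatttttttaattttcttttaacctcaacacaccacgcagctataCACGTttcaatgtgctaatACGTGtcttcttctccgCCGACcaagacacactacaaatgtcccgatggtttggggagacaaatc
LEA14: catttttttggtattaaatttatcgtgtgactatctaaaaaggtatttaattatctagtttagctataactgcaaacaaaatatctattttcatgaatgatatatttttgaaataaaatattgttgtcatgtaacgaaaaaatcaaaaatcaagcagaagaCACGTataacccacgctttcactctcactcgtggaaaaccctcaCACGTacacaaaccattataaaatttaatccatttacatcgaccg

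EM1 had 2 ABRE core matches, the first base of each 116 and 63 bases before the gene start, and AT3G15670 had 3, at 248, 84 and 65 bases, with 1 DRE core at 48 bases. LEA14 had 2 ABRE cores, at 89 and 45 bases. RAB18 had 3, at 163, 111 and 18 bases, in a window that PLP3b, a gene on the opposite strand, also covers. SAG21, COR47 and ERD10 had no match to ACGTG on either strand in this window. The ABRE core was thus found before 4 of the 7 genes, 3 of them higher and 1 lower in ndx1-4. Over 27443 annotated protein-coding genes the same window held at least 1 ABRE core in 22.9%, and at least 2 separate ones in 4.98%; it held at least 1 in 28.6% of the 1956 listed protein-coding genes. Matches that overlapped each other were counted once, and ACGTG also lies within the G-box CACGTG, which was before none of the 7 and before 6.49% of all genes. The DRE core was before 12.0% of all genes, and the RY element CATGCA, a letter run of seed gene promoters, before 8.43% of all and before 1 of the 7, COR47. A match of letters is not a shown binding site, and the absence of one concerns this window alone.

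**Figure D2:**
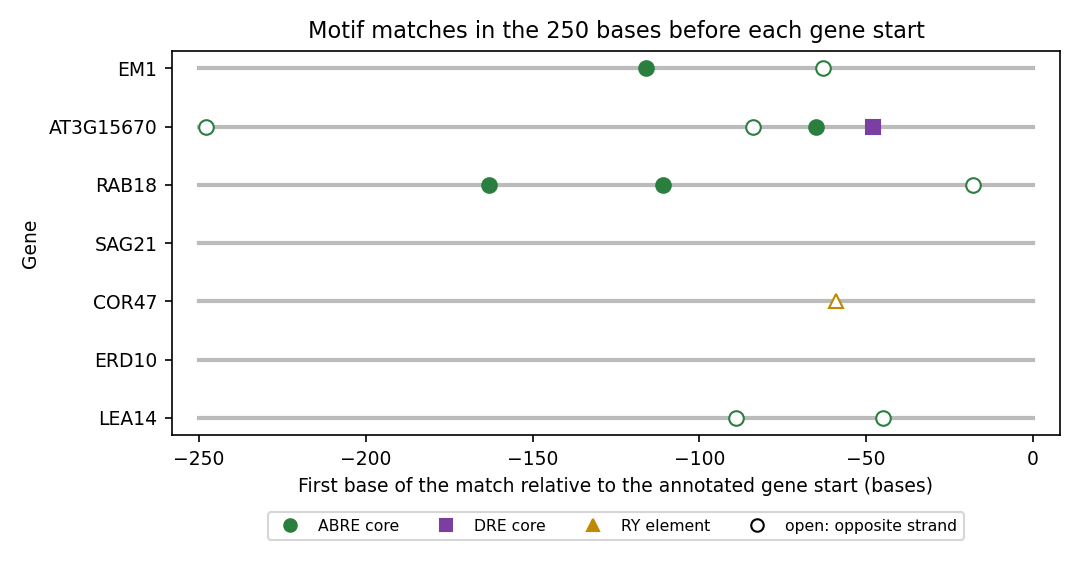
Positions of the motif matches in the 250 bases before each gene start (x axis, bases relative to the start; each row is a gene, ordered from the largest increase in ndx1-4 to the decrease), with filled symbols on the strand of the gene and open symbols on the opposite strand. ABRE cores (circles) lie before EM1, AT3G15670, RAB18 and LEA14, and no match lies before SAG21 or ERD10.

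The 3 dehydrins, proteins with lysine-rich segments that are thought to shield membranes during dehydration and cold, were higher in ndx1-4 by small amounts. RAB18 (AT5G66400, chromosome 5, 26518277 to 26519447, minus strand), an ABA and drought responsive dehydrin, measured 29.31 and 30.04 FPKM for Col-0 against 36.99 and 39.82 FPKM for ndx1-4. Its means differed by 1.29-fold, with a limma difference of 0.36 ± 0.05 (SE). The nearest libraries were 6.95 FPKM apart, and the mutant libraries differed from each other by 0.10 in log2(FPKM + 1). COR47 (AT1G20440, chromosome 1, 7084409 to 7086873, minus strand), a cold regulated acidic dehydrin, measured 165.18 and 166.47 FPKM for Col-0 against 199.12 and 203.31 FPKM for ndx1-4, a limma difference of 0.28 ± 0.03 (SE). ERD10 (AT1G20450, chromosome 1, 7087903 to 7089606, minus strand), a related acidic dehydrin of early dehydration, measured 65.98 and 65.25 FPKM for Col-0 against 75.72 and 78.54 FPKM for ndx1-4, a limma difference of 0.23 ± 0.04 (SE). Replicates were close in all 3 dehydrins, with an SD of at most 2.96 FPKM. COR47 and ERD10 are neighbours on the same strand, with 1029 bases between them, and COR47 was the more abundant by 2.53-fold in Col-0 and 2.61-fold in ndx1-4. Summed over the 3 dehydrins the level was 260.47 and 261.76 FPKM for Col-0 against 311.83 and 321.67 FPKM for ndx1-4.

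SAG21 (AT4G02380, chromosome 4, 1046042 to 1047105, minus strand), also called AtLEA5, is a mitochondrial LEA protein linked to oxidative stress and senescence. It measured 945.25 and 924.99 FPKM for Col-0 against 1222.14 and 1140.42 FPKM for ndx1-4, so that the mutant libraries were the higher ones by at least 195.17 FPKM. The means were 935.1 ± 14.3 FPKM and 1181 ± 57.8 FPKM (SD, n = 2 each), a 1.26-fold change with a limma difference of 0.34 ± 0.04 (SE). SAG21 alone made 73.6% to 75.7% of the summed FPKM of the 7 genes in each library. Without it the other 6 summed to 328.99 and 325.93 FPKM in Col-0 and to 392.33 and 409.79 FPKM in ndx1-4. In absolute FPKM the largest gain was therefore in SAG21 and not in EM1.

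LEA14 (AT1G01470, chromosome 1, 171525 to 172948, minus strand) belongs to an atypical LEA group that folds into a compact structure and is less hydrophilic than the others. It measured 63.3 and 59.13 FPKM for Col-0 against 42.84 and 48.72 FPKM for ndx1-4. Both mutant libraries were lower, and the nearest values were 10.41 FPKM apart. The means were 61.2 ± 2.95 FPKM and 45.8 ± 4.16 FPKM (SD, n = 2 each), with a limma difference of -0.41 ± 0.06 (SE). Of the 7 genes LEA14 had the widest replicate spread on the log scale, with a difference of 0.18 between the ndx1-4 libraries. With single libraries left out its difference ranged from -0.50 to -0.32.

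The order of levels in Col-0 was SAG21, COR47, ERD10, LEA14, RAB18, AT3G15670 and EM1. In ndx1-4 it was the same except that EM1 came above AT3G15670, at 28.36 and 10.17 FPKM on means. Libraries of neighbours in these orders did not overlap in either genotype. The closest were ERD10 and LEA14 in Col-0, where means were 1.07-fold apart, and LEA14 and RAB18 in ndx1-4, 1.19-fold apart.

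Most listed genes were lower in ndx1-4, and the median limma difference of all 1984 was -0.20. Median-ratio scaling over the listed genes moved that median to -0.01. Relative to the deposited median EM1 was higher by 3.70, AT3G15670 by 1.496, RAB18 by 0.56, SAG21 by 0.53, COR47 by 0.47 and ERD10 by 0.43, and LEA14 was at -0.22. That scaling raised ndx1-4 against Col-0 in every gene, so the genes already higher in ndx1-4 could not change direction under it. LEA14, the only 1 of the 7 genes that could, was left at -0.23.

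Reads of these transcripts were checked for other possible origins by comparing 50-base words, the labelled read length, between the transcripts of each gene and those of all other annotated genes. None of the 902 words of EM1 was found in another gene, its relative GEA6 included. The same held for AT3G15670, RAB18, COR47, ERD10 and LEA14. SAG21 shared 131 of its 968 words (13.5%), with MIR2936 (AT4G04125), a microRNA precursor annotated within the gene on the same strand. The transcripts were from the RefSeq annotation, while the authors used Araport11. RAB18 overlaps PLP3b on the opposite strand by 11 bases, and the library kit does not mark strand.

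Across the wider LEA family, 12 of 56 genes written down as family members were in the table, the 7 above and 5 others. By limma 11 of the 12 were higher and 1, LEA14, was lower at an adjusted p under 0.01, beside 43.0% and 55.9% of all listed genes, 98.9% together. After median-ratio scaling 869 of all listed genes passed as higher and 612 as lower, in place of 853 and 1110. The family genes had been listed for differing and were chosen with earlier results known, so the counts are no evidence of a family direction. The median difference was 0.42, against -0.20 over all listed genes. With 1 library left out fewer genes passed, in the family and among all listed genes alike.

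The other 5 family genes were higher in ndx1-4. AT1G72100, with a LEA domain, measured 0.52 and 0.32 FPKM for Col-0 against 1.65 and 1.49 FPKM for ndx1-4, a difference of 0.86 ± 0.13 (SE) at very low levels. DI21 (AT4G15910), a drought induced relative of SAG21, measured 89.13 and 85.15 FPKM for Col-0 against 140.38 and 140.23 FPKM for ndx1-4, a difference of 0.68 ± 0.03 (SE). AT3G02480 measured 38.82 and 38.48 FPKM and then 52.14 and 60.55 FPKM. The remaining pair are of the same atypical group as LEA14. AT2G46140 measured 26.97 and 23.53 FPKM for Col-0 against 35.32 and 35.52 FPKM for ndx1-4, and AT2G44060 155.6 and 151.94 FPKM and then 172.67 and 176.04 FPKM. Within that group LEA14 was thus the lower one and the other 2 were higher, with limma differences of 0.48 and 0.18.

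**Figure D3:**
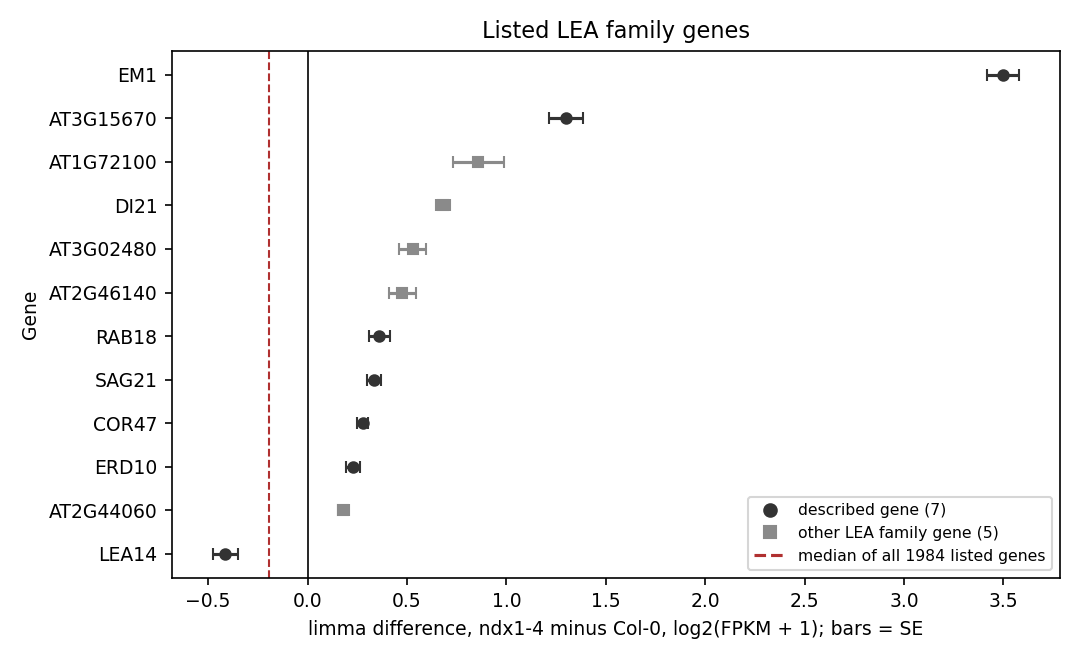
Limma difference (x axis, ndx1-4 minus Col-0 on the log2(FPKM + 1) scale, bars are SE) of the 12 LEA family genes in the table, with the 7 described genes in black, the other 5 in grey and the median of all 1984 listed genes as a dashed line at -0.20. EM1 stands apart at 3.50, and LEA14 at -0.41 is the gene left of the median.

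Many LEA genes respond to ABA, so genes of ABA perception, metabolism and response were set beside them from lists of 85 genes, of which 14 were in the table. By limma 3 were higher and 11 were lower at an adjusted p under 0.01, with a median difference of -0.47. Of all listed genes 43.0% passed as higher and 55.9% as lower, and these genes too were listed for differing, so that all 14 passed carries no information. Fewer of these genes passed when a library was left out, as held for all listed genes. The other 71 genes are outside the listed genes and were not analysed here. Of the receptors and kinases, PYL4 (AT2G38310), an ABA receptor, measured 39.55 and 36.19 FPKM for Col-0 against 26.65 and 29.94 FPKM for ndx1-4. OST1 (AT4G33950), the SnRK2 kinase of guard cells, measured 17.69 and 17.86 FPKM and then 11.52 and 13.64 FPKM. CYP707A1 (AT4G19230), which breaks ABA down, was at 8.95 and 8.38 FPKM for Col-0 against 5.96 and 5.92 FPKM for ndx1-4.

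Of 27 response genes 8 were in the table, 7 lower and 1 higher by limma, beside the same 55.9% and 43.0% of a table selected for differing. GolS4 (AT1G60470), a galactinol synthase, measured 8.1 and 8.44 FPKM for Col-0 against 2.48 and 2.54 FPKM for ndx1-4. KIN1 (AT5G15960), a cold and ABA induced gene, measured 69.47 and 76.24 FPKM and then 33.42 and 36.67 FPKM. These were the largest decreases of the response list, with limma differences of -1.40 and -1.03. The other lower genes of that list were LTP4 (-0.81), AT2G37870 (-0.74), LTP3 (-0.71), COR413IM1 (-0.36) and KIN2 (-0.27). KIN1 has a close neighbouring copy, KIN2, and how reads were divided over the pair is not known. The genes higher in ndx1-4 in the ABA lists were BGLU18 (AT1G52400), a glucosidase that frees ABA from its conjugate, at 50.42 and 49.77 FPKM for Col-0 against 86.05 and 92.5 FPKM for ndx1-4, ABA1 (AT5G67030) with a difference of 0.12 and ADC2 (AT4G34710) with 0.27. FUS3 (AT3G26790), a B3 transcription factor of seed maturation, was the single gene listed among 21 transcription factors, at 1.64 and 1.15 FPKM for Col-0 against 0.04 and 0 FPKM for ndx1-4.

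**Figure D4:**
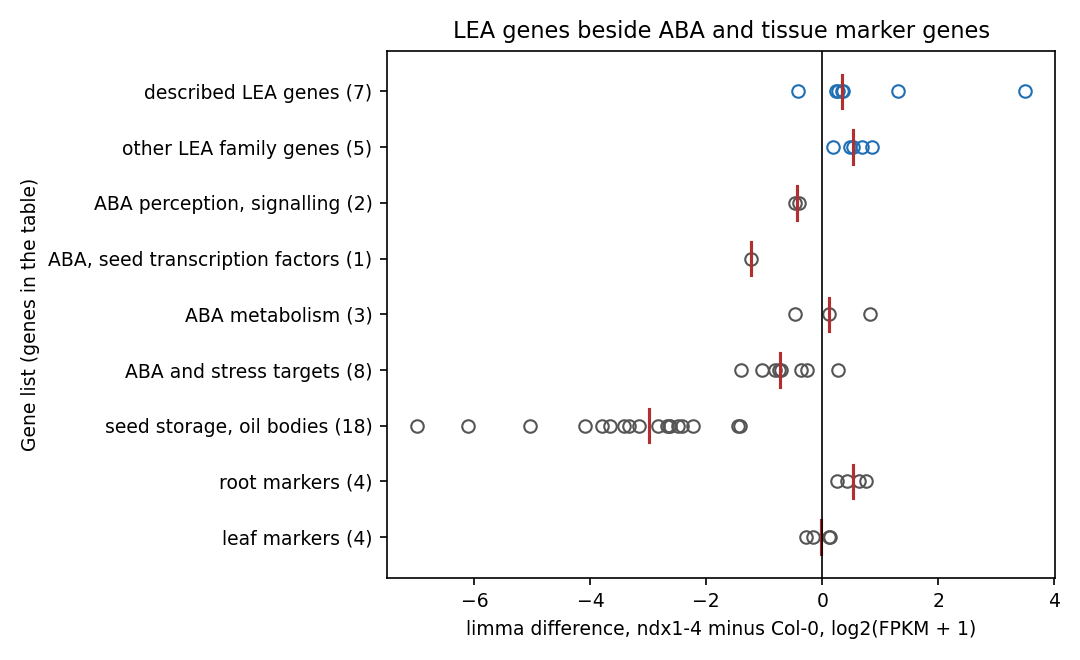
Limma difference (x axis, ndx1-4 minus Col-0, log2(FPKM + 1)) of each listed gene of the LEA lists (blue), the ABA lists and the tissue marker lists (grey), with a red line at each list's median. The 7 LEA genes have a median of 0.34 and the 8 ABA and stress targets a median of -0.73, and the 18 seed storage and oil body genes lie between -6.98 and -1.41.

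EM1 and AT3G15670 are mainly genes of seeds, so markers of seed and other tissues were measured in the same libraries. Among 21 markers of seed storage and oil bodies 18 were in the table, and these 18 were lower in ndx1-4, the direction opposite to EM1. They summed to 1199 and 1246 FPKM for Col-0 against 81.55 and 70.84 FPKM for ndx1-4, and 1 of them, AT1G03890, was listed at 0 in both ndx1-4 libraries. Of 12 root markers 4 were in the table and 4 were higher in ndx1-4, summing to 279.18 and 264.95 FPKM for Col-0 against 352.11 and 347.14 FPKM for ndx1-4, among them CASP1, of the root endodermis, with a difference of 0.64. Of 18 leaf markers 4 were in the table, 2 higher and 2 lower, and they were abundant in every library, with sums from 12137 to 13192 FPKM. Of all listed genes 43.5% were higher and 56.5% lower without overlap, and the markers were listed for differing as well. The part of seed or root material in the LEA values was not tested.

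For each of the 7 genes the 3 listed genes with the most similar pattern were taken, by Euclidean distance between log2(FPKM + 1) values centred over the 4 libraries. With 2 libraries per genotype this mostly finds genes with an equal difference. Nearest to EM1 were AT5G17090, of the cystatin superfamily (distance 0.11), AT1G02770 (0.13) and AT3G16590, an F-box protein (0.20). AT1G02770 had levels like those of EM1 as well, at 1.55 and 1.21 FPKM for Col-0 against 26.22 and 25.37 FPKM for ndx1-4. Nearest to LEA14 were the ABA receptor PYL4 (distance 0.02), the flagellin receptor FLS2 (0.03) and AT4G24050 (0.03). Nearest to AT3G15670 was AT1G28500, to RAB18 MORF3, to SAG21 ENO1, to COR47 TRIP-1 and to ERD10 AT1G58983.

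Few listed genes lay near the LEA genes on the chromosome. Within 10 kb of EM1, SAG21 and LEA14 there was no listed gene among 7 annotated ones in each case. Beside AT3G15670 lay AT3G15650, a hydrolase gene that was lower in ndx1-4 at 4.49 and 4.47 FPKM for Col-0 against 0.81 and 1.52 FPKM in the mutant, the opposite direction. Beside RAB18 lay AT5G66390, a peroxidase gene, higher at 15.07 and 14.33 FPKM and then 26.4 and 27.28 FPKM. COR47 and ERD10 had each other and AT1G20480, a ligase family gene at 4.52 and 4.18 FPKM for Col-0 against 8.47 and 7.18 FPKM for ndx1-4, within that distance.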

How the data were processed

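Per the labels, mRNA-seq libraries were made from total RNA of seedlings with an unstranded Illumina TruSeq kit and read as single 50-base reads. Salmon, corrected for GC bias, counted reads over Araport11 genes; the authors then compared the genotypes by DESeq2 and deposited FPKM for genes at an adjusted p under 0.01. The deposited fold change and adjusted p columns were not used, nor was the table of transposable elements. Coordinates are TAIR10; all 1984 genes had the same start, end and strand in the RefSeq annotation of TAIR10.1, which supplied names, transcripts and sequences.

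Differences on log2(FPKM + 1) were fitted by limma 3.58.1 with a variance trend, in R 4.3.3 (4 libraries, no covariates), with Benjamini-Hochberg adjustment over all 1984 listed genes. No filter was applied. The fit was tested on simulated data in which most genes were unchanged, unlike the listed genes, so that test does not vouch for the calls here. A single-gene permutation test was not run. Members and lists were chosen with earlier results of these data known. Within them all listed LEA family and ABA genes were named. FPKM was printed for part of the ABA genes, which were not picked by size of difference alone. Of the 3 nearest patterns per gene, all were named for EM1 and LEA14 and the nearest alone for the others. Alternatives were a pseudocount of 0.1, a minimum mean of 1 FPKM, median-ratio scaling, no variance trend, adjustment over all 38094 annotated genes, a replicate block and leaving out each library.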

Additional observations from a re-analysis of the deposited data

How the results depend on the processing

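For the 7 LEA and dehydrin genes the minimum of 1 FPKM, the fit without a variance trend and the replicate block return the same difference by construction, and removing a library cannot turn a direction where libraries do not overlap, so these settings say nothing about stability. Of the 14 values under the pseudocount of 0.1 and median-ratio scaling 9 moved by more than the replicate SD. None of the 14 changed sign, but a pseudocount cannot turn a direction either where libraries do not overlap. The scaling divided Col-0 by 1.07 and 1.07 and ndx1-4 by 0.937 and 0.936, which raised ndx1-4 in every gene. Only LEA14 under the scaling could thus have changed sign, and it did not. With a pseudocount of 0.1 the difference was 4.07 for EM1 and 1.498 for AT3G15670. With median-ratio scaling it was 3.65 for EM1, 1.46 for AT3G15670, 0.55 for RAB18, 0.53 for SAG21, 0.47 for COR47, 0.42 for ERD10 and -0.23 for LEA14. That scaling gave 612 genes lower in place of 1110 and 869 higher in place of 853, so that the share higher moved from 43.5% to 58.7%, and 0 LEA family genes lower by limma in place of 1. It centres a list of called genes, which by construction sets the balance of directions.

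With single libraries left out the difference ranged from 3.47 to 3.53 for EM1, 1.27 to 1.33 for AT3G15670, 0.31 to 0.41 for RAB18, 0.29 to 0.39 for SAG21, 0.26 to 0.29 for COR47, 0.20 to 0.26 for ERD10 and -0.50 to -0.32 for LEA14. The genes past the threshold then numbered 336 to 378 higher and 422 to 469 lower, in the LEA family 5 to 6 higher and 0 lower in each case, and in the ABA lists 1 to 2 higher and 4 to 8 lower. LEA14 differed by -0.23 under median-ratio scaling. It had been listed for differing in these same libraries, so whether it passes a threshold is not evidence. With a library left out fewer samples were fitted, and the lone library was assumed to vary like the other genotype. Adjustment over all annotated genes left 614 higher and 773 lower, and in the ABA lists 8 lower.

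The labels do not say whether libraries with the same replicate number share a growth or preparation. Deviations of replicate 1 from the genotype mean correlated at 0.02 between the genotypes over 1984 genes, which cannot settle that question. With a replicate block 851 genes were higher and 1107 lower, and EM1 differed by 3.50. The study describes its gene tables as holding counts as well as FPKM, but counts were not analysed here, since the columns of the seedling table used are in FPKM, and no count model was run. Depth is unknown from FPKM, so no limit can be given for a level of 0, and values near 1 FPKM, as in AT1G72100, FUS3 and EM1 in Col-0, are the least certain.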
